A study of Mus musculus with 18 samples.

Results

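Collagen genes were taken as every row whose gene symbol is Col, a number, the letter a and a number, such as Col1a1, with antisense symbols left out. The mouse tables held 43 of them among 23284 gene symbols, and the human tables held 43 among 25432, with COL21A1 in the human tables alone and Col6a4 in the mouse tables alone. No collagen symbol had more than 1 entry in either table. The study measured RNA in 18 libraries that form 6 groups of 3. They were whole lungs of wild-type and dGATA mice, memory Th2 cells in culture, and eosinophils in culture. The labels do not state that replicates came from separate animals, donors or cultures, so p-values measure the spread between these libraries only.

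The lungs came from BALB/c mice treated with ovalbumin (OVA), either wild-type or labelled as a knockout and named dGATA. The labels do not spell out the dGATA allele, and the series' own design text speaks of house dust mite while the labels say OVA. Gata1, which encodes a transcription factor needed to make eosinophils and red blood cells, was at 1.65, 1.23 and 0.963 FPKM in the wild-type lungs and 0.126, 0.134 and 0.314 in the dGATA lungs. The eosinophil gene Ccr3 lay between 4.53 and 5.88 FPKM in wild-type lungs and at 0.252 or less in dGATA lungs. Epx, an eosinophil peroxidase, was low in wild-type lungs too, at 0.262, 0.388 and 0.228 FPKM, and was listed at 0 in the 3 dGATA lungs. The Th2 cells, also labelled BALB/c, were ST2-high memory cells kept for 3 days in medium holding IL-2, to which IL-33, the ligand of ST2, was added in one group. The eosinophils were kept for 3 days without or with amphiregulin, a growth factor of the EGF family. Their labels say mouse and BALB/c, but their tables hold human gene symbols, and they were read as human.

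Collagens are secreted proteins whose chains wind in threes into a triple helix. Fibrillar collagens, chiefly types I and III in lung, give the tissue its tensile strength and are deposited in excess in fibrosis. Type IV collagen forms the sheet-like network of the basement membranes under epithelium and around capillaries, and type VI forms beaded filaments that link cells to the fibrils. Fibroblasts are the main source of the fibrillar and type VI chains, whereas endothelial and epithelial cells make much of type IV.

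Type IV chains are encoded in head-to-head gene pairs, and because both members of a pair are followed here, the DNA between their starts is shown. In the coordinates of the deposited tables, Col4a1 ends its minus-strand gene at 11312826 on chromosome 8 and Col4a2 starts on the plus strand at 11312829. The bases at chr8:11312813-11312842 (plus strand, RefSeq, GRCm38.p6) hold both starts, with the 2 bases between them in capitals.
Col4a1 and Col4a2: ggcggcgtctccaaGGggaggaccctgcgg
The Col4a4 and Col4a3 pair lies on chromosome 1 with 71 bases between the starts, at chr1:82586850-82586920. No GC box or CCAAT box was found in it, so nothing is in capitals.
Col4a4 and Col4a3: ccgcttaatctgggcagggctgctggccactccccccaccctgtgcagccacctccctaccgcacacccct
Col4a6 and Col4a5 are also divergent, with 1342 bases between their starts.

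Upstream sequence is shown for 3 more members that the results return to, namely Col1a2 and Col6a1, for which the 3 dGATA lungs all lay below the wild-type lungs, and Col18a1, which was higher in Th2 cells with IL-33. Each is the 250 bases before the RefSeq start, 5′ to 3′ on the gene's own strand, with GC boxes (GGGCGG or CCGCCC) and CCAAT boxes (CCAAT or ATTGG) in capitals. Col1a2 is at chr6:4505368-4505617 on the plus strand, Col6a1 at chr10:76726045-76726294 on the minus strand and Col18a1 at chr10:77166531-77166780 on the minus strand.
Col1a2: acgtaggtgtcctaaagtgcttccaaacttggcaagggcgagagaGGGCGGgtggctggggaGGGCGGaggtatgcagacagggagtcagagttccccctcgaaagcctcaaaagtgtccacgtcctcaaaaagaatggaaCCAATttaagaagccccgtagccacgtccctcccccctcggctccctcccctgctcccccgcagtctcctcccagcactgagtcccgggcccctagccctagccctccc
Col6a1: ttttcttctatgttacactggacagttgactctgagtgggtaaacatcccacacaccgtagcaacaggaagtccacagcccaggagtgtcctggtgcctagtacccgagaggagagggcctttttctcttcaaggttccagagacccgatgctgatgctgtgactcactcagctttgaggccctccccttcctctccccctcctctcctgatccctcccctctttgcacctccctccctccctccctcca
Col18a1: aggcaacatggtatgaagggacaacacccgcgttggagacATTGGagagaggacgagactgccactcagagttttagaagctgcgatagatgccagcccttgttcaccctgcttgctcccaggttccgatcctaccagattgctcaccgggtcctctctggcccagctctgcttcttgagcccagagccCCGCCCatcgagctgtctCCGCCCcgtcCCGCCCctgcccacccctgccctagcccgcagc
Col1a2 held a CCAAT box 109 bases before its start and GC boxes at 205 and 188 bases. In Col18a1 the GC boxes began 61, 43 and 33 bases before the start, and Col6a1 held neither motif. Promoter windows were on hand for 35 of the 43 mouse members. A GC box on either strand was in 21 of the 35 (60%), beside 32.9% of 27025 genes with a window, and a CCAAT box was in 12 (34.3%), beside 34.5% of all. A TATA box (TATAAA or TTTATA) was in 5 of the 35 (14.3%) and in 13% of all. These are matches of letters and were not tested as binding sites. Distances hold for the RefSeq start, which lay 79 bases from the deposited gene start for Col1a2 and matched it for Col6a1 and Col18a1. The deposited tables give each gene a range and do not say which transcript start was used.

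Levels are given as FPKM, which scales fragments by transcript length and by library size, so that genes can be compared. In wild-type lung 29 of the 43 collagen genes averaged at least 1 FPKM, 19 at least 10 and 7 at least 100. Those 7 were Col3a1, Col4a1, Col6a1, Col6a2, Col1a2, Col4a2 and Col1a1, in falling order, and they held 82.3% of the summed collagen FPKM. Neighbours in that order overlapped from lung to lung, since Col1a2 spanned 129 to 159.7 FPKM and Col6a2 147 to 151. The whole family summed to 1345, 1373 and 1261 FPKM in the wild-type lungs and to 831, 1196 and 1098 in the dGATA lungs, so the groups did not overlap. Mean summed FPKM was 1326 ± 58.3 (SD, n = 3) in wild-type and 1042 ± 189 (SD, n = 3) in dGATA lung. In whole tissue, fewer cells of a type and less RNA per cell cannot be told apart.

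**Figure D1:**
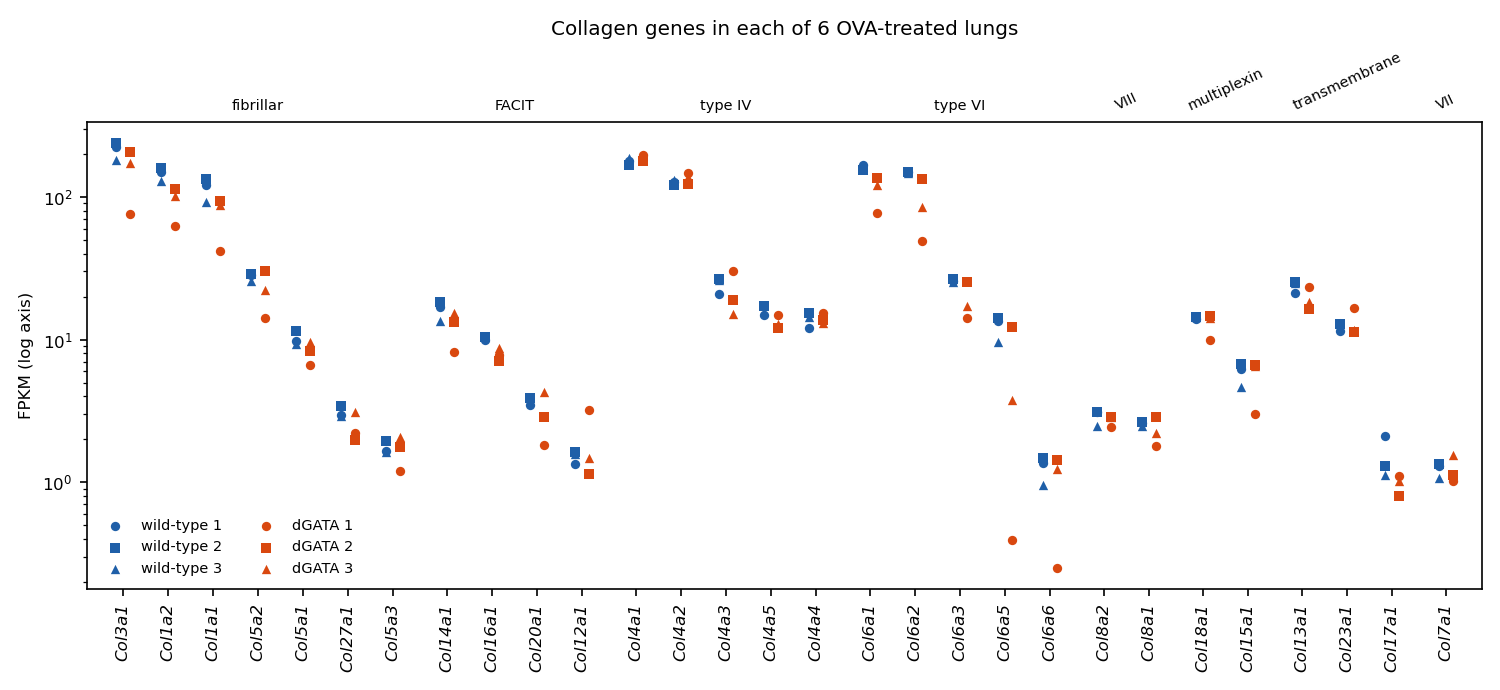
FPKM (log axis) of the 29 collagen genes tested in lung, ordered by class and then by wild-type mean, with 1 point for each of the 3 wild-type (blue) and 3 dGATA (orange) libraries. dGATA 1 (orange circles) is the lowest lung for the 5 type VI genes and for 6 of the 7 fibrillar genes, with Col3a1 at 76.2 FPKM, but not for Col27a1 or for any of the 5 type IV genes, with Col4a1 at 195.

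No collagen gene passed the test between dGATA and wild-type lung. With limma on log2(FPKM + 1), over the 13727 symbols with at least 1 FPKM in at least 3 lungs and with Benjamini-Hochberg adjustment, 0 of the 29 members tested were called higher and 0 lower at an adjusted p under 0.05. Across all symbols 0.0437% were called higher and 0.051% lower, so few calls of any kind were made in these lungs. Without adjustment, 5 of the 29 members and 939 of all 13727 symbols had a limma p under 0.05. The 5 were Col16a1, Col1a2, Col6a1, Col6a2 and Col4a5. Of the 29, 24 had a log2 difference below 0, beside 59.1% of all tested symbols, and the members' median was -0.27, beside -0.03 for all. Without dGATA replicate 1, 22 of the 29 were below 0, beside 54.9% of all, and the median was -0.16. In 6 of the 29 (Col1a2, Col4a5, Col6a1, Col6a2, Col16a1 and Col17a1) the 3 dGATA lungs all lay below the 3 wild-type lungs, and in 0 all lay above. Over all symbols 9.86% lay below and 4.26% above without overlap.

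**Figure D2:**
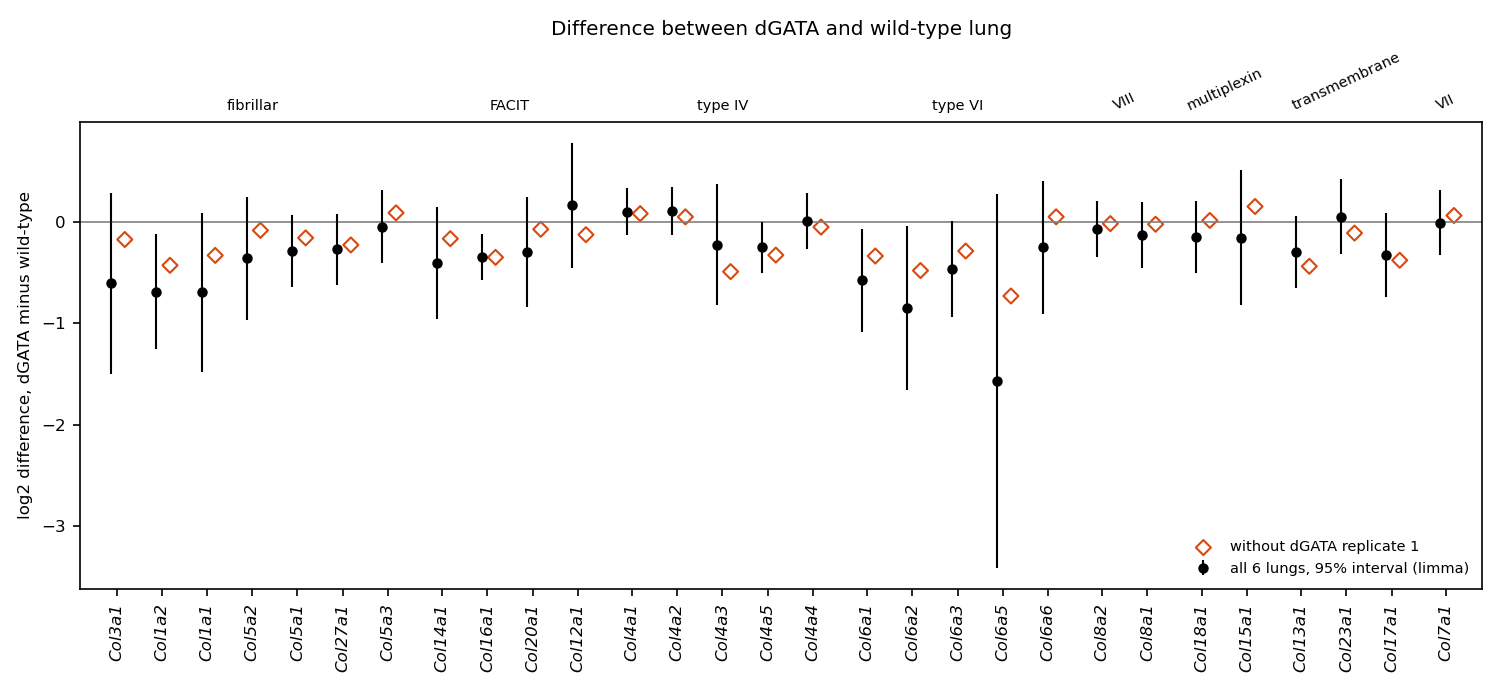
Log2 difference (dGATA minus wild-type, on log2(FPKM + 1)) of the 29 tested collagen genes by class, as black points with 95% intervals from limma, and as open diamonds without dGATA replicate 1. Most points lie below 0, the type IV pair Col4a1 and Col4a2 lies just above it, and leaving out dGATA 1 brings Col3a1 from -0.61 to -0.17.

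The fibrillar class had the highest summed level of any class in wild-type lung, and type IV the highest mean in dGATA lung. The latter rests on dGATA 1, and without it the dGATA means were 430.4 FPKM for the fibrillar class and 362 for type IV. Col3a1, the single chain of type III collagen, was at 224, 238 and 182 FPKM in the wild-type lungs and at 76.2, 207 and 173 in the dGATA lungs. The groups overlapped, since dGATA 2 exceeded wild-type 3, and the log2 difference was -0.61 (95% interval -1.50 to 0.29, limma adjusted p = 0.801). Col1a1, which encodes the alpha-1 chain of type I collagen, measured 122, 133 and 92.2 FPKM in wild-type lung against 42, 93.7 and 87.9 in dGATA lung. There too dGATA 2 lay above the lowest wild-type lung, and the log2 difference of -0.69 had an interval from -1.48 to 0.09. Col1a2, the partner chain of Col1a1 in type I collagen, was at 149, 159.7 and 129 FPKM in wild-type and at 62.4, 114 and 102 in dGATA lung. For this gene the groups did not overlap, with a log2 difference of -0.69 (95% interval -1.25 to -0.12, limma adjusted p = 0.654). The ratio of Col1a1 to Col1a2 ranged from 0.717 to 0.832 in wild-type lungs and from 0.674 to 0.866 in dGATA lungs, so the ranges of the groups overlapped.

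Type V chains, which are built into type I fibrils and help set their width, were lower in level. Col5a2 was at 28.1, 28.9 and 25.8 FPKM in wild-type lung and at 14.2, 30.3 and 22.3 in dGATA lung, with dGATA 2 the highest of the 6. Col5a1 was at 9.83, 11.4 and 9.24 FPKM in wild-type and 6.60, 8.37 and 9.62 in dGATA lung. Col5a3 lay between 1.62 and 1.96 FPKM in wild-type and between 1.2 and 2.07 in dGATA lung. All 3 overlapped between groups, and none had an unadjusted limma p under 0.05. The 7 fibrillar genes tested all had log2 differences below 0, from -0.69 to -0.05, with a median of -0.36. Their class summed to 519.8 ± 68.9 FPKM (SD, n = 3) in wild-type and 355 ± 133 (SD, n = 3) in dGATA lung, a ratio of 0.684. Col27a1 was the last of the 7, and Col2a1, Col11a1, Col11a2 and Col24a1 did not pass the filter on low values.

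Type VI collagen chains had the lowest summed ratio among the classes with several tested genes. Col6a1 was at 167, 155 and 165 FPKM in wild-type lung and at 77.6, 136 and 121 in dGATA lung. The dGATA values all lay below the wild-type ones, and the log2 difference was -0.58 (95% interval -1.08 to -0.07, limma adjusted p = 0.679). Col6a2, whose product assembles with those of Col6a1 and Col6a3 into the classical type VI molecule, was at 151, 149 and 147 FPKM in wild-type and at 48.9, 133 and 85.4 in dGATA lung. Again the groups did not overlap. The SD was 1.67 FPKM among the wild-type lungs and 42 among the dGATA lungs (n = 3 each). The log2 difference of Col6a2 was -0.85 (95% interval -1.66 to -0.04, limma adjusted p = 0.721), and it was -0.48 without dGATA 1. Col6a3 was at 25.7, 26.4 and 25.1 FPKM in wild-type lung and at 14.2, 25.3 and 17.3 in dGATA lung, where dGATA 2 reached the wild-type range.

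Of the later-described type VI chains, Col6a5 and Col6a6 passed the filter and Col6a4, at 0.127 to 0.333 FPKM over the 6 lungs, did not. Col6a5 was at 13.5, 14.2 and 9.56 FPKM in wild-type lung and at 0.396, 12.3 and 3.78 in dGATA lung. It had the most negative log2 difference of the 29 (-1.57), with a 95% interval from -3.41 to 0.27; dGATA 2 was at 99.3% of the wild-type mean, dGATA 3 at 30.4% and dGATA 1 at 3.19%. Col6a6 was at 1.36, 1.49 and 0.955 FPKM in wild-type lung and at 0.252, 1.43 and 1.24 in dGATA lung, so only dGATA 1 lay below the wild-type range. The type VI class summed to 351 ± 6.79 FPKM (SD, n = 3) in wild-type and 226 ± 83.4 (SD, n = 3) in dGATA lung, a ratio of 0.645. The ratio of Col6a1 to Col6a2 ranged from 1.04 to 1.12 in wild-type lungs and was 1.59, 1.03 and 1.41 in dGATA lungs.

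Among the type IV chains, Col4a1 and Col4a2 had small log2 differences above 0. Col4a1 was at 179, 166 and 187 FPKM in the wild-type lungs and at 195, 179 and 197 in the dGATA lungs, and its log2 difference was 0.10 (95% interval -0.13 to 0.33). Col4a2, its head-to-head neighbour and partner in the basement membrane of most tissues, was at 126, 121 and 131 FPKM in wild-type and at 147, 124 and 138 in dGATA lung, a log2 difference of 0.11 (95% interval -0.13 to 0.34). The groups overlapped for both genes. After rescaling every library to a common FPKM sum, the Col4a1 difference was -0.0004 in place of 0.10. Col4a1 stood at 1.33 to 1.44 times Col4a2 in all 6 lungs, the narrowest ratio of the chain pairs examined.

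The chains of the alveolar and kidney type of basement membrane had lower levels. Col4a3 was at 20.7, 26.6 and 26 FPKM in wild-type lung and at 30.3, 19 and 15.2 in dGATA lung, and Col4a4 was at 12.1, 15.4 and 14.3 against 15.4, 13.7 and 13. In both genes dGATA 1 was the highest dGATA lung, opposite to its place among the fibrillar genes. Col4a5, carried on the X chromosome, was at 14.9, 17.3 and 15.6 FPKM in wild-type and at 14.8, 12.1 and 12.9 in dGATA lung. Its groups did not overlap, but only narrowly, at 14.9 FPKM for the lowest wild-type and 14.8 for the highest dGATA lung, with a log2 difference of -0.25 (limma adjusted p = 0.723). Col4a6 did not pass the filter, at 0.177 to 0.269 FPKM over the 6 lungs. The ratio of Col4a3 to Col4a4 was 1.72, 1.73 and 1.81 in wild-type lungs, and in dGATA lungs 1.97, 1.39 and 1.17. Exons of other genes on the opposite strand cover 5.6% of the Col4a3 exonic bases, so its reads may be shared if strand was not used in counting. The class summed to 358 ± 14.3 FPKM (SD, n = 3) in wild-type and 376 ± 27.6 (SD, n = 3) in dGATA lung, a ratio of 1.05. Rescaling to a common FPKM sum took the log2 ratio of the class from 0.068 to -0.0294 and the Col4a4 difference from 0.01 to -0.0854.

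FACIT collagens sit on the surface of fibrils. Col14a1, the FACIT gene with the highest lung level, was at 17, 18.2 and 13.6 FPKM in wild-type lung and at 8.23, 13.3 and 15.3 in dGATA lung, and the groups overlapped. Col16a1 had the smallest p of any member. It was at 9.95, 10.4 and 10.3 FPKM in wild-type and at 7.81, 7.04 and 8.68 in dGATA lung. The groups did not overlap, and the log2 difference of -0.35 (95% interval -0.58 to -0.12, limma adjusted p = 0.546) was -0.35 without dGATA 1 as well. Col12a1, a FACIT collagen known from tendon and stressed tissue, was at 1.35, 1.63 and 1.58 FPKM in wild-type and at 3.21, 1.15 and 1.48 in dGATA lung, so its difference of 0.16 came with dGATA 1 alone above the wild-type range. Summed FACIT FPKM was 32.3 ± 2.35 (SD, n = 3) in wild-type and 25.9 ± 4.97 (SD, n = 3) in dGATA lung.

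The multiplexins carry C-terminal fragments known as endostatins. Col18a1 was at 13.9, 14.4 and 14.4 FPKM in wild-type lung and at 9.99, 14.7 and 14.1 in dGATA lung, where only dGATA 1 lay below the wild-type range. Among the transmembrane collagens, which stay anchored in the cell membrane, Col13a1 had the highest level, at 21.3, 25.2 and 24.9 FPKM in wild-type and 23.5, 16.3 and 18.2 in dGATA lung. Here dGATA 1 was within the wild-type range and the other 2 dGATA lungs were below it. Col8a2, a network-forming chain best known from the cornea, was at 3.13, 3.11 and 2.48 FPKM in wild-type and 2.43, 2.85 and 2.85 in dGATA lung. Col7a1, the anchoring fibril collagen of skin, was at 1.29, 1.34 and 1.07 FPKM in wild-type and 1.01, 1.12 and 1.56 in dGATA lung, with a log2 difference of -0.01. None of these 4 had an unadjusted limma p under 0.05. Col28a1, in no larger class, was at 0.256 to 0.323 FPKM in wild-type and 0.160 to 0.225 in dGATA lung and did not pass the filter.

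A single library stood apart in the collagen genes. dGATA replicate 1 was the lowest of the 6 lungs for 18 of the 29 collagen genes, beside 30.6% of all tested symbols. After rescaling to a common FPKM sum it was lowest for 17. In it, 12 of the 29 lay below 60% of the wild-type mean, against 1 in dGATA 2 and 2 in dGATA 3. The median collagen gene stood at 70.1%, 90.02% and 93.5% of the wild-type mean in dGATA 1, 2 and 3, whereas the median over all tested symbols stood at 97.0%, 96.7% and 97.7%. dGATA 1 was the lowest lung for 5 of 5 type VI genes and 6 of 7 fibrillar genes, and for 0 of 5 type IV and 0 of 3 transmembrane genes. Members of a class were spread there, the FACIT genes from 48.4% of the wild-type mean for Col20a1 to 211% for Col12a1 and the transmembrane genes from 73.5% for Col17a1 to 132% for Col23a1. Col6a2 was at 32.9%, Col3a1 at 35.5%, Col1a1 at 36.3% and Col1a2 at 42.8% of the wild-type mean there, while Col4a5 was at 92.5%, Col4a1 at 110% and Col4a3 at 124%. The ratio of Col4a1 to Col1a1 was 4.65 in dGATA 1, against 1.47, 1.25 and 2.03 in the wild-type lungs and 1.91 and 2.24 in dGATA 2 and 3. Without dGATA 1 the log2 differences were -0.33 for Col1a1, -0.43 for Col1a2, -0.17 for Col3a1, -0.34 for Col6a1 and -0.73 for Col6a5, and no collagen gene was called.

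Some lists of cell type markers also had their lowest sum in dGATA 1. All 8 fibroblast markers tested had log2 differences below 0 (median -0.33), 0 of 8 were called and 2 had an unadjusted limma p under 0.05. Their summed level was 580 to 613 FPKM in wild-type lungs, and dGATA 1, 2 and 3 had 425, 538 and 530. Only 2 of the 8, Fn1 and Mfap5, were lowest in dGATA 1, and others were not, such as Pdgfra at 53.7, 36.3 and 38.3 FPKM and Tcf21 at 69.6, 72.2 and 55.6 in dGATA 1, 2 and 3. The 5 pericyte markers summed to 31.8 to 33.5 FPKM in wild-type lungs and to 27.5, 26.3 and 32.9 in the dGATA lungs, with 0 called and 2 with an unadjusted limma p under 0.05. The 7 smooth muscle and myofibroblast markers summed to 718 to 785 FPKM in wild-type lungs and to 443, 800 and 716 in the dGATA lungs, with 6 of the 7 lowest in dGATA 1. Macrophage markers, 6 of 7 tested, summed to 974 to 1105 FPKM in wild-type lungs and to 510, 1351 and 1068 in dGATA lungs, with all 6 lowest in dGATA 1. The 5 T cell markers tested summed to 71.9 to 86.2 FPKM in wild-type lungs and to 45.7, 115 and 91.4 in dGATA lungs. All 5 were lowest in dGATA 1, and 0 were called. Endothelial markers went the other way, with sums of 888 to 1045 FPKM in wild-type and 1208, 983 and 999 in dGATA lungs. So did epithelial ones, at 83050 to 94740 against 122882, 103297 and 99488. Most of the epithelial sum was Scgb1a1 (means 65074 and 81525 FPKM) and Sftpc (19688 and 23639). Ager alone of the 8 epithelial markers tested had a log2 difference below 0 (-0.08). Of the 8, 0 were called and 2 had an unadjusted limma p under 0.05. Of the defining markers on these lists none was listed at 0 in all 6 lungs. Mesothelial markers summed to 59.6 to 95.6 FPKM in wild-type and 35.4 to 52.9 in dGATA lungs. Of the 3 tested, 0 were called, 3 had an unadjusted limma p under 0.05 and 0 were lowest in dGATA 1. Their median log2 difference was -0.73. The 5 tested eosinophil markers included 2 called lower, Ccr3 and Prg2. The part of cell composition in the collagen differences was not tested.

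Genes that act on collagen were examined from lists by role. Of 20 enzymes and chaperones of chain modification and folding, 0 were called (4 had an unadjusted limma p under 0.05), 16 had log2 differences below 0, and the median was -0.11. Serpinh1, the collagen-specific chaperone HSP47, had the smallest p on that list. It was at 199.7, 244 and 224 FPKM in wild-type lungs and at 135, 132 and 131 in dGATA lungs. These groups lay far apart and dGATA 1 was not the lowest, but the adjusted limma p was 0.175 (log2 difference -0.74). P4ha1, a catalytic subunit of the prolyl hydroxylase, which stabilises the triple helix, was at 32.8, 43.0 and 37.7 FPKM in wild-type and at 27.1, 17.6 and 24 in dGATA lung (limma adjusted p = 0.516). Plod1, a lysyl hydroxylase, averaged 33.7 ± 2.00 FPKM (SD, n = 3) in wild-type and 25.3 ± 2.11 (SD, n = 3) in dGATA lung.

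All 9 tested genes of procollagen processing and crosslinking had log2 differences below 0, with a median of -0.32; 0 were called and 4 had an unadjusted limma p under 0.05. Pcolce, which enhances cleavage of the C-terminal propeptide, was at 87.4, 99.0 and 93.2 FPKM in wild-type and at 70.4, 76.7 and 70.3 in dGATA lung. Loxl1, a crosslinking oxidase, was at 37.5, 36.3 and 39.4 FPKM in wild-type and 21, 32.4 and 27.9 in dGATA lung. Neither pair of groups overlapped. Among the small proteoglycans that bind fibrils, 7 of 8 tested had differences below 0 (median -0.36, 0 called, 3 with an unadjusted limma p under 0.05). Bgn, or biglycan, was at 508, 499.7 and 592 FPKM in wild-type and at 415, 391 and 399.9 in dGATA lung. Of the collagen receptors, 5 of 7 tested lay below 0 and 0 were called (2 with an unadjusted limma p under 0.05). Of the collagenases and their inhibitors, 7 of 9 lay below 0 and 0 were called (4 with an unadjusted limma p under 0.05). Mmp2, a gelatinase, was at 78.4, 69.3 and 76.3 FPKM in wild-type and at 35.8, 58.6 and 49.7 in dGATA lung, whereas Mmp8, the neutrophil collagenase, was at 0.913, 1.24 and 1.14 FPKM in wild-type and at 2.20, 1.89 and 2.21 in dGATA lung.

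dGATA replicate 3 stood apart in another set of low collagens. Col2a1, the main fibrillar chain of cartilage, was at 0.746 FPKM in dGATA 3 and at 0.149 or less in the other 5 lungs. Col9a2, which decorates type II fibrils, was at 0.660 FPKM there and at 0.0641 or less elsewhere. Col10a1, known from hypertrophic chondrocytes, was at 1.55 FPKM in dGATA 3 and at 0.103 or less elsewhere, and Col11a2 was at 1.77 FPKM against 0.373 to 0.929. Each is high in a single lung, so none separates the groups. The 6 cartilage markers found summed to 0.424 to 0.876 FPKM in wild-type lungs and to 0.515, 1.29 and 3.07 in dGATA 1, 2 and 3. Acan was at 0.814 FPKM in dGATA 3 and at 0.0493 or less in the others. Comp, Matn1 and Matn3 were also highest in dGATA 3. Sox9 was not, at 0.454 FPKM there against 0.751 in dGATA 2 and 0.624 in wild-type 2. dGATA 3 also had the highest erythroid sum, 9162 FPKM, against 112 to 1010 in the other 5. The part of any such tissue in these values was not tested.

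**Figure D3:**
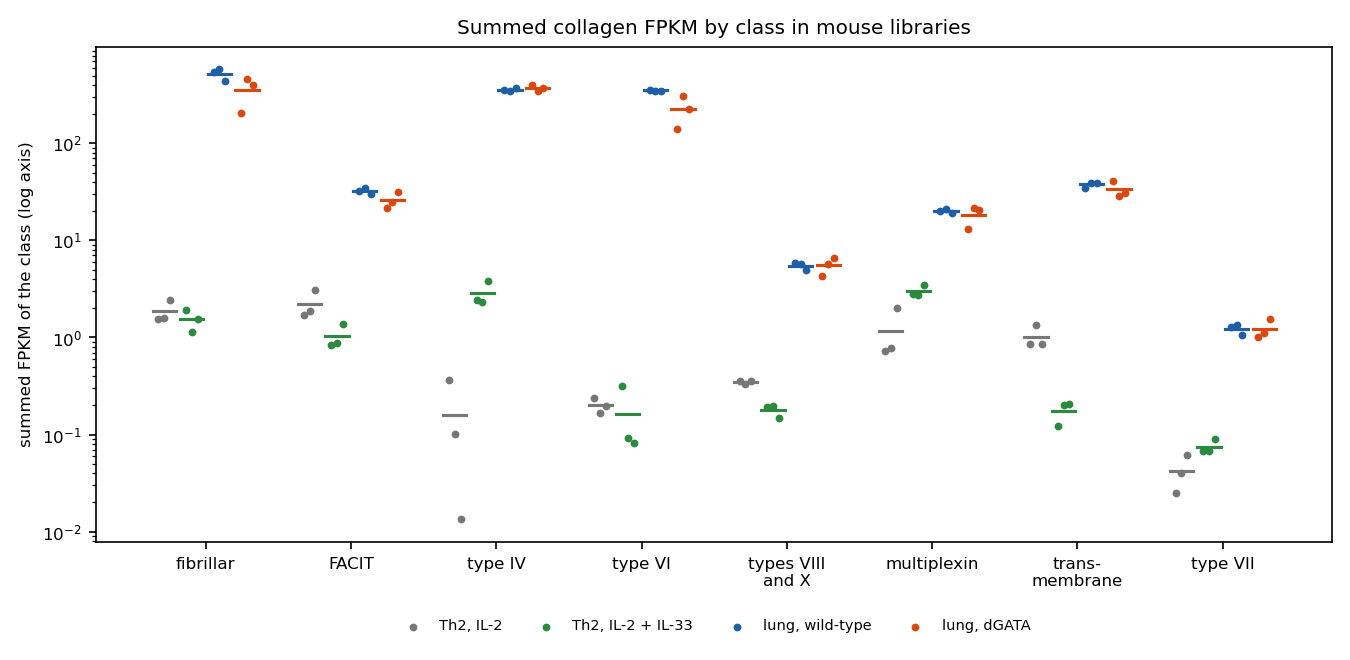
Summed FPKM (log axis) of each collagen class in the 4 mouse groups, with points for the 3 libraries and bars for their means. Lung exceeds Th2 cells in every class, and among Th2 cells the type IV and multiplexin sums are higher with IL-33 while the transmembrane sum is lower.

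Collagen RNA in the mouse libraries was largely a lung signal. The summed collagen FPKM was 7.03 ± 1.74 (SD, n = 3) in Th2 cells with IL-2 and 9.05 ± 1.59 (SD, n = 3) with IL-33 added. In the fit over the 12 mouse libraries, 29 of the 29 tested members were called higher in lung and 0 lower, beside 54.5% and 34% of all symbols. Of these 29, 26 passed the filter only with the lung libraries, so their number and direction were largely set by the filter. The members' median log2 difference was 3.30, beside 0.38 for all tested symbols. Tissue and experiment cannot be told apart in that contrast. The largest difference was for Col3a1, at 7.31 (95% interval 6.84 to 7.78), and the smallest for Col6a6, at 1.05. With no filter on low values, 35 of the 43 members were called higher in lung and 0 lower, beside 50.7% and 25.7% of 19674 symbols. Fibroblast markers summed to no more than 1.25 FPKM in any Th2 library, with Tcf21 and Mfap5 listed at 0 in all 6.

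In Th2 cells, 3 collagen genes at low levels were higher with IL-33, and 2 more were lower in a fit without a filter. With the filter, 3 members passed, Col18a1, Col4a1 and Col4a2, and each passed it only through the IL-33 libraries, so their number and direction were set by the filter. Col18a1 was at 0.278, 0.255 and 0.162 FPKM with IL-2 and at 2.71, 2.70 and 3.37 with IL-33, in the order of replicates 1, 3 and 5 and of replicates 2, 4 and 6. Its 3 IL-33 libraries lay more than 2 FPKM above every IL-2 library, and the log2 difference was 1.67 (95% interval 1.4 to 1.93, limma adjusted p = 9.11e-05). Col4a1 was at 0.245, 0.0453 and 0 FPKM with IL-2 and at 1.25, 1.33 and 2.38 with IL-33, a log2 difference of 1.26 (limma adjusted p = 0.0024). Its neighbour Col4a2 was at 0.12, 0.0467 and 0 FPKM with IL-2 and at 1.2, 1.00 and 1.46 with IL-33, a log2 difference of 1.07 (limma adjusted p = 0.0008). Both rose, without overlap, and the ratio of Col4a1 to Col4a2 with IL-33 was 1.04, 1.33 and 1.63, a wider range than the 1.33 to 1.44 in lung. All 3 members tested were thus called higher and 0 lower, beside 16.3% and 25.7% of the 10296 symbols tested. That is 1680 symbols higher and 2651 lower, and after rescaling to a common FPKM sum it was 1890 and 1586, with the 3 members still called higher.

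Fits without a filter, chosen because the filter had picked the members, covered 35 of the 43 collagen genes. Again 3 were called higher, the same 3, and 2 were called lower, beside 11.4% and 15% of 16306 symbols. Col23a1, a transmembrane collagen, was at 0.849, 1.36 and 0.840 FPKM with IL-2 and at 0.102, 0.144 and 0.130 with IL-33. The groups lay well apart and it fell by 0.83 on the log2(FPKM + 1) scale (limma adjusted p = 0.0046). Col8a2 fell by 0.24 on that scale (limma adjusted p = 0.0033), from 0.236 ± 0.0223 FPKM (SD, n = 3) to 0.0462 ± 0.0249 (SD, n = 3). Such levels rest on few reads, and the count of genes called lower ranged from 2 to 4 when each library was left out in turn. Without IL-2 replicate 5 it was 4, with Col15a1 and Col5a1 added, and without IL-33 replicate 6 it was 3, with Col20a1 added.

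**Figure D4:**
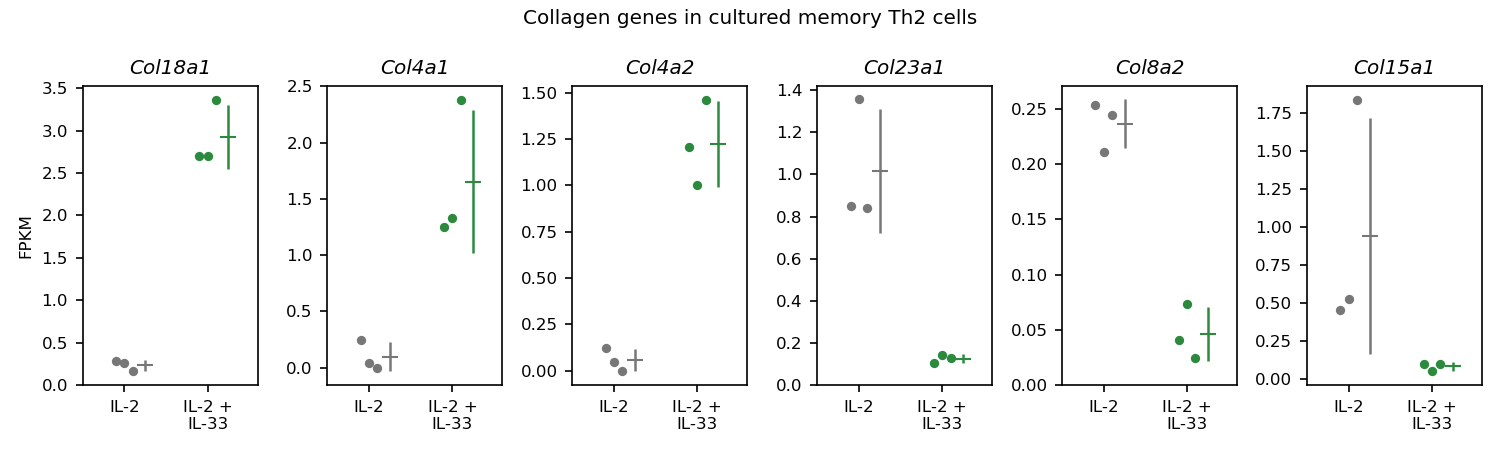
FPKM of 6 collagen genes in Th2 cells cultured with IL-2 (grey) or IL-2 and IL-33 (green), with points for the 3 libraries of a group and a bar for mean ± SD. Col18a1, Col4a1 and Col4a2 are higher with IL-33 in all 3 libraries, and Col23a1, Col8a2 and Col15a1 are lower in all 3.

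Other members ran lower with IL-33 without passing the test. Col15a1, the second multiplexin, was at 0.453, 0.525 and 1.84 FPKM with IL-2 and at 0.0985, 0.0473 and 0.0989 with IL-33 (limma adjusted p = 0.0828). Thus the 2 multiplexins lay on opposite sides, Col18a1 higher and Col15a1 lower, although the latter was not called. Col11a2, the member with the highest mean with IL-2, was at 0.873, 0.861 and 1.70 FPKM with IL-2 and at 0.777, 0.717 and 0.974 with IL-33. Col20a1 was at 0.864, 0.966 and 1.49 FPKM against 0.463, 0.410 and 0.762, and Col9a3 at 0.822, 0.908 and 1.57 against 0.339, 0.434 and 0.613. The 3 have their highest value in IL-2 replicate 5, the shallowest of the 6 Th2 libraries. Col9a3 shares 6.1% of its exonic bases with a gene on the opposite strand. Uncalled members that were higher with IL-33 without overlap were Col13a1 (limma adjusted p = 0.086), Col1a2 (limma adjusted p = 0.152) and Col7a1 (limma adjusted p = 0.182). They reached at most 0.0751, 0.215 and 0.09 FPKM, and Col1a2 and Col13a1 were listed at 0 in the 3 IL-2 libraries. Uncalled members lower with IL-33 without overlap were Col15a1, Col20a1, Col9a3 and Col5a1. The share of all symbols without overlap was not computed in Th2 cells, so these lists do not set collagen genes apart. Col1a1 and Col3a1 stayed at 0.400 FPKM or less in every Th2 library.

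The genes that act on collagen included several called in Th2 cells, named here after their values were seen. Of 11 tested genes of chain modification and folding, 6 rose (P4ha2, P4hb, Plod2, Plod3, Crtap and Ppib) and 0 fell with IL-33, beside 16.3% of all tested symbols called higher and 25.7% lower. Ppib, the prolyl isomerase cyclophilin B, rose from 347, 361 and 311 FPKM to 706, 699 and 540.3 (log2 difference 0.92, limma adjusted p = 0.0022). P4ha2 rose from 1.77, 2.45 and 1.94 FPKM to 5.13, 5.13 and 5.75, and Plod2 rose from 2.03, 2.07 and 2.21 to 4.55, 4.42 and 5.28. Serpinh1, the chaperone particular to collagens, was at 0.111 FPKM or less in all 6. Ppib and P4hb also serve other secreted proteins. None of the 13 processing and crosslinking genes or the 9 proteoglycan genes reached the filter. Among the 4 tested receptors, Itga1 (the alpha-1 integrin chain) and Ddr1 rose, and Itga2 and Itgb1 fell. Itgb1, the shared beta chain, went from 68.6, 66.4 and 66.6 FPKM to 37.5, 34.4 and 37.9. Mmp9 and Timp1 fell, the latter from 36.4, 50.2 and 43.2 FPKM to 10.8, 10.8 and 13.2, and Mmp13 was not called.

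Eosinophils had another collagen profile. The members with the highest mean FPKM without amphiregulin were COL18A1, COL9A2, COL6A1 and COL6A2, and the leading 9 held 94.3% of the summed level. COL3A1 was listed at 0 in all 6 libraries, and COL1A1 reached at most 0.203 FPKM. Of 43 members, 9 passed the filter. Between cultures with and without amphiregulin 0 of the 9 were called higher and 0 lower by limma, and 0 had an unadjusted p under 0.05, beside 0.0317% of 12635 symbols called higher, 0.174% called lower and 393 with an unadjusted p under 0.05. All 9 log2 differences of the group means were below 0, with a median of -0.42, beside 0.02 for all tested symbols. Summed collagen FPKM was 85.1 ± 26.1 (SD, n = 3) without and 54.4 ± 8.28 (SD, n = 3) with amphiregulin.

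Levels in eosinophils went with the number of the library. COL18A1 was at 12.1, 8.32 and 31.7 FPKM without amphiregulin, for numbers 2, 3 and 4, and at 6.81, 7.69 and 23.4 with it. COL9A2, a FACIT chain of cartilage and eye, was at 14.4, 6.67 and 27 FPKM without and at 7.03, 7.04 and 24.3 with amphiregulin. Number 4 was highest for both genes in both cultures. For COL6A1 number 4 was lowest in both cultures, at 29.0, 10.2 and 0.914 FPKM without and 12.4, 5.29 and 0.982 with amphiregulin. COL6A2 was at 27, 7.05 and 4.28 FPKM without and 11.8, 5.76 and 1.80 with it, lower with amphiregulin in 3 of 3 numbers. Of the 9 tested members, 5 (COL6A2, COL17A1, COL18A1, COL23A1 and COL24A1) were lower with amphiregulin in 3 of 3 numbers, and the other 4 in 2 of 3. The same share over all tested symbols was not computed, so this count does not set collagen genes apart. COL4A1 was at 5.33 and 3.30 FPKM in the number 4 libraries, where COL4A2 was at 0.0381 and 0, so the head-to-head pair was not at a common ratio in these cells. With the number as a block in the limma fit, 0 members were called higher and 0 lower, beside 0.53% and 0.586% of all symbols, and 2 had an unadjusted p under 0.05. They were COL6A2 (adjusted p = 0.27) and COL23A1 (adjusted p = 0.358). Leaving out number 4 from that blocked fit called COL23A1 lower (limma adjusted p = 0.018), with values of 5.97 and 6.45 FPKM without against 2.39 and 1.78 with amphiregulin. That fit called more symbols of any kind, 376 higher and 205 lower of 12248, against 67 and 74 of 12635 with all numbers.

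**Figure D5:**
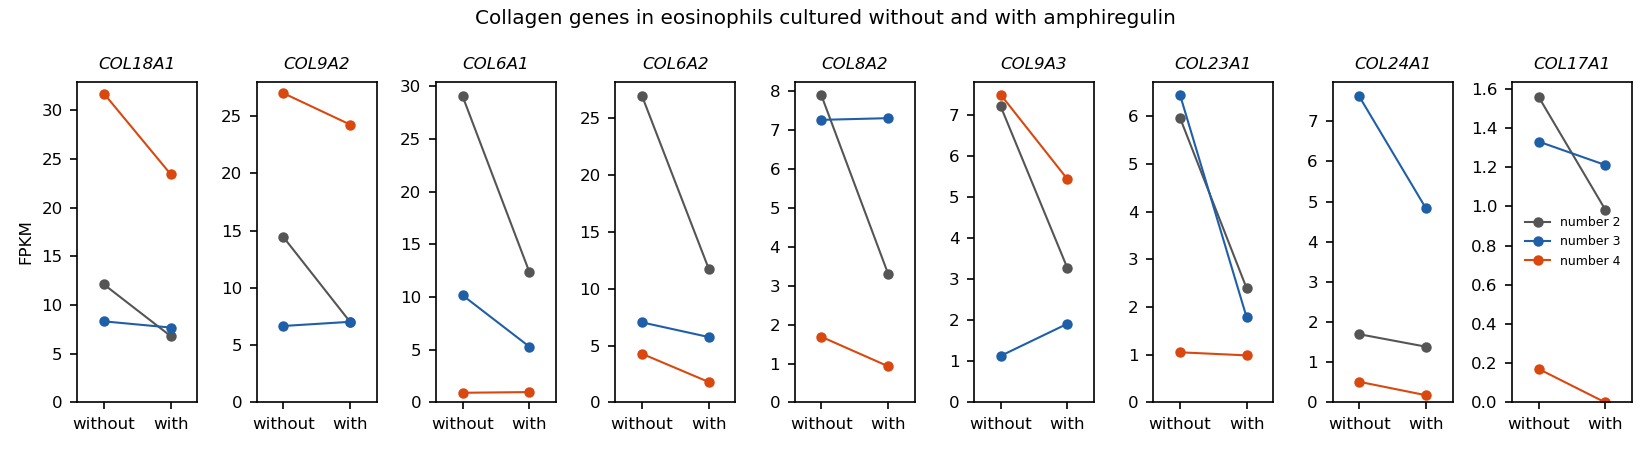
FPKM of the 9 collagen genes tested in eosinophils cultured without or with amphiregulin, with a line joining the libraries of each number (2, 3 and 4). Number 4 is the highest for COL18A1 and COL9A2 in both cultures, and 5 of the 9 genes (COL6A2, COL17A1, COL18A1, COL23A1 and COL24A1) are lower with amphiregulin in all 3 numbers. The same share over all tested symbols was not computed.

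Markers of other cells were present in the eosinophil libraries. Macrophage markers, 7 of 7 tested, summed to 496 to 2354 FPKM without and 360 to 1013 with amphiregulin. Of them 0 were called and 3 had an unadjusted limma p under 0.05, in both directions. MRC1 averaged 1.82 FPKM without and 55.3 with amphiregulin, whereas APOE averaged 940 and 108 and CD14 160 and 8.07. Eosinophil markers summed to 119 to 176 FPKM without and 106 to 215 with it. Symbols of both lists were matched in capitals. In place of mouse Siglecf, SIGLEC5 was taken by name alone and not as its human counterpart. SIGLEC5 averaged 17.3 FPKM without and 20.8 with amphiregulin, and is included in the eosinophil sums. The sums cover different genes and do not rank the cell types. Fibroblast markers summed to 0.992 to 8.25 FPKM without and 3.19 to 74.3 with amphiregulin. Of the 8 only 1 was tested, and TCF21, DPT and MFAP5 were listed at 0 in all 6. The 1 tested was FN1, which made up most of the sum. It averaged 2.67 FPKM without and 28.7 with amphiregulin, of list means of 3.57 and 29.2. T cell markers, 5 of 5 tested with 0 called and 0 with an unadjusted limma p under 0.05, summed to 321, 204 and 135 FPKM without amphiregulin for numbers 2, 3 and 4 and to 174, 116 and 78.2 with it, so they were lower with it in 3 of 3 numbers. The part of these cells in the collagen values was not tested. Of the genes that act on collagen, 0 were called by limma in any of the 5 lists, with 2 unadjusted p-values under 0.05, both among the 8 tested collagenases and inhibitors.

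Across the series the deposited values carry no read counts. Relative depth, read from the lowest FPKM steps within each comparison, ranged from 0.58 to 1.0 among lungs, 0.67 to 1.34 among Th2 libraries and 0.36 to 1.0 among eosinophil libraries. No interval from counting error can be given, and the precision of members under 1 FPKM is the least.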

How the data were processed

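RNA from 6 lungs, 6 Th2 cultures and 6 eosinophil cultures was sequenced from stranded mRNA libraries, per the labels' protocols. The deposited values are FPKM per gene, which the authors made with Bowtie 0.12.8, TopHat 1.3.2 and Cufflinks 2.0.2 on mm10, per the submitters' processing notes. Whether counting used strand is not stated in the labels. FPKM was summed per symbol. The eosinophil tables hold human symbols and were tested apart, with 140 sex-linked symbols left out. limma 3.58.1 (R 4.3.3, trend fitted) tested log2(FPKM + 1) for symbols with at least 1 FPKM in at least 3 libraries of a comparison. Benjamini-Hochberg adjustment ran over all of them, and a log2 difference on this scale understates changes of low genes. The test was checked on simulated data. Class sums, chain ratios and list medians are descriptions.

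Collagen members, classes, pathway lists and markers were chosen with earlier results of these data known. Members named with values are all tested chains of types I, III, IV, V and VI, the leading gene of every other class, called genes, the 4 with the largest lung differences and the 4 with the highest means in Th2 cells and eosinophils. From other lists up to 3 with the smallest lung p are named, with further genes where they show what a list was made of. Same-numbered eosinophil libraries deviated together (correlations 0.399, 0.356 and 0.669, all over 0.1), so the numbers were taken to pair them, from the data and the labels' numbers. Numbers 2 and 3 also deviated together across the cultures (0.308 and 0.281), whereas number 4 did not with either (-0.427 to -0.506). The data thus set number 4 apart, and telling 2 from 3 rests mainly on the labels' numbers. For same-numbered lungs the correlations were -0.286, -0.116 and -0.243, and Th2 numbers do not recur. Alternatives were another pseudocount, other filters, 2 rescalings, leaving out each library, a replicate block and a model over 12 libraries.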

Additional observations from a re-analysis of the deposited data

How the results depend on the processing

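No collagen gene was called in lung under any alternative run, and the lowest adjusted limma p was 0.096, for Col16a1 in the model over the 12 mouse libraries. The lung numbers do not pair the samples, and the replicate block left 0 collagen genes called there, higher or lower. In eosinophils the paired fit with the replicate block also called 0 in each direction. Without number 4 it called 1 collagen gene lower, beside 205 of all 12248 symbols, and the cause was not tested. In Th2 cells the count called lower was 0 with the filter and 2 with no filter, ranging from 0 to 4 when each library was left out (2 to 4 with no filter). Leaving out any IL-33 library, or a filter of 5 FPKM, left no collagen gene to test. Rescaling to a common sum moved the median of all symbols from -0.03 to -0.13 in lung and from 0.02 to 0.21 in eosinophils. After it 27 of 29 collagen genes lay below 0 in lung, beside 78.8% of all symbols, and 8 symbols were called higher and 22 lower in eosinophils, against 4 and 22. The 12-library model called 19 symbols higher and 77 lower in lung, against 6 and 7. Rescaling took the type IV sum, as a log2 ratio, from 0.068 to -0.0294, and turned Col23a1 (-0.0443), Col4a1 (-0.0004) and Col4a4 (-0.0854), while median-of-ratios scaling turned Col7a1 (0.0166) and the block without number 2 turned COL9A3 (0.0254).

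None of these differences was called. Leaving out each library in turn, lung log2 differences that changed sign ranged from -0.1261 to 0.3582 for Col12a1, -0.3168 to 0.152 for Col15a1, -0.2426 to 0.0144 for Col18a1, -0.1105 to 0.1471 for Col23a1, -0.0796 to 0.0813 for Col4a4, -0.152 to 0.0894 for Col5a3, -0.4287 to 0.05 for Col6a6 and -0.1103 to 0.063 for Col7a1. In eosinophils the ranges were -0.5775 to 0.1316 for COL17A1, -0.9464 to 0.098 for COL18A1, -0.9661 to 0.3305 for COL24A1, -1.7344 to 0.2514 for COL6A1, -1.0631 to 0.0389 for COL8A2, -0.8923 to 0.1129 for COL9A2 and -0.9537 to 0.0433 for COL9A3. Depth is unknown beyond relative values, and with 3 libraries a group the intervals are wide.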
